A study of Mus musculus with 8 samples.

Results

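The transcripts of 10 circadian clock genes were followed in sn-RNAseq of the mouse hippocampus: Arntl, Clock, Npas2, Per1, Per2, Per3, Cry1, Cry2, Dbp and Nr1d2. They were chosen by symbol, as the core loop and 2 of its outputs, out of 30211 genes in the count matrices, and 9 of the 10 had at least 1 UMI (unique molecular identifier, a tag that counts each captured transcript once). The 8 libraries came from 1 C57BL/6 mouse each (C57BL/6N in the study's methods), with 3 WT and 3 GKO mice aged 7 mo, 1 J20;WT mouse and 1 J20;GKO mouse, both aged 6 mo. GKO mice lack Gsap (γ-secretase activating protein) in all tissues, by way of a CMV-Cre deletion of loxP-flanked exons. The J20 transgene is a human APP carrying both the Swedish and the Indiana mutation, driven by a PDGFB promoter. The J20;GKO mouse carries both alleles, and the J20;WT mouse carries the transgene with intact Gsap. The time of day at which hippocampi were dissected is not given in the sources used here.

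In the clock, ARNTL (BMAL1) pairs with CLOCK or with NPAS2, its close relative in the forebrain, and the pair binds E-box sequences to switch on the Per and Cry genes. PER and CRY proteins then shut the pair off again, so that the loop takes about a day. NR1D1 and NR1D2 (REV-ERBα and REV-ERBβ) repress Arntl through ROR elements, and Dbp, Tef and Hlf are E-box outputs whose proteins drive further genes through D-boxes. In rodent tissues Arntl, Clock and Npas2 peak near dawn, whereas Dbp, Nr1d2, Per1 and Per2 peak later in the light phase and around dusk. Per1 is also induced within minutes by glucocorticoids and by neuronal activity.

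The 250 bases before the annotated start were searched on both strands for the E-box CACGTG, the D-box TTANGTAA, the cAMP response element TGACGTCA and the ROR element in all 32851 RefSeq windows of mouse build GRCm38.p6. They held these in 6.02%, 2.06%, 1.55% and 2.03% of windows. Ciart is the clock repressor CHRONO. Its window held 3 E-boxes. The first of 2 windows of Tef and of Per1 held 1 each, and that of Per1 lies inside the annotated gene (chr11:69095217-69109960), at a later start. The windows of Arntl, Dbp and Nr1d2 held none of the 4 motifs, which says only that these letters are not in those bases. The first 3 windows are shown for their E-boxes, and those of Arntl, Dbp and Nr1d2 because results on members below turn on them. Letters are 5′ to 3′ on the strand of the gene, and capitals mark the E-boxes.

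Ciart (chr3:95882229-95882478, minus strand): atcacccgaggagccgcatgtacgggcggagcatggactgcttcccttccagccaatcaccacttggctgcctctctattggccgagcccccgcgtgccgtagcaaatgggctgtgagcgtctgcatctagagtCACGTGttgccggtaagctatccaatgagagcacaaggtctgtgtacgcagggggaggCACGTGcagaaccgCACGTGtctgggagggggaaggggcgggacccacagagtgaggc
Tef (chr15:81802423-81802672, plus strand): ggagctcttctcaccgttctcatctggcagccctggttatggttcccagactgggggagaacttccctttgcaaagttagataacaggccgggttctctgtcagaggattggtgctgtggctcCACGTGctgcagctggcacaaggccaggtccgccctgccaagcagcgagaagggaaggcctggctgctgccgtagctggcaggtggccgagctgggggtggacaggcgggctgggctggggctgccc
Per1 (chr11:69098699-69098948, plus strand): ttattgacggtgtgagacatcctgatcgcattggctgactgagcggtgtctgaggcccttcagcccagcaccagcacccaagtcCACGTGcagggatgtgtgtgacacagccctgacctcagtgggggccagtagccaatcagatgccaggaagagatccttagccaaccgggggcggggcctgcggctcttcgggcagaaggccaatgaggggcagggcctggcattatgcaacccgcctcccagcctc
Arntl (chr7:113207215-113207464, plus strand): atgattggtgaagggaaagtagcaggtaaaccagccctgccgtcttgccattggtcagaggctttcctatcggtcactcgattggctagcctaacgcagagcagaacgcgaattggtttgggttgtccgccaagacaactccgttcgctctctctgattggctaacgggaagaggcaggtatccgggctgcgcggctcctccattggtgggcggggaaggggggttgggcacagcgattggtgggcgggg
Dbp (chr7:45704997-45705246, plus strand): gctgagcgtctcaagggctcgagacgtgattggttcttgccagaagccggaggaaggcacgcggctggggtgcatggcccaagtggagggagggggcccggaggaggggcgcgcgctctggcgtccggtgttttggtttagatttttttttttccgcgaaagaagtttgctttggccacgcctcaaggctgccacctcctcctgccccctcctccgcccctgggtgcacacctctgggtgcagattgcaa
Nr1d2 (chr14:18239107-18239356, minus strand): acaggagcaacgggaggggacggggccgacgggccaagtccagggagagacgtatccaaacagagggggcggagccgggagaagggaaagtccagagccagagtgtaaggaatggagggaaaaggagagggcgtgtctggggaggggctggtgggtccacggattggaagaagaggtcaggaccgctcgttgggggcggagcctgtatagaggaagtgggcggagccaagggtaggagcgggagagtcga

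Clock lies at chr5:76209868-76304792, Npas2 at chr1:39193731-39363236, Per2 at chr1:91415982-91459324, Cry1 at chr10:85131700-85185064 and Cry2 at chr2:92403646-92434043 (GRCm38). Among the other windows, Cry1 and Bhlhe41 held 1 E-box each, Per3 held 2 D-boxes and Hlf held 1 cAMP response element. Clock, Npas2, Cry2 and Nr1d1 held none. Per2 had no entry.

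After filtering, 32041 nuclei were kept of 33314 barcodes, with 21020159 to 43310978 UMIs per library and a median of 4579 to 6438.5 UMIs per nucleus. Pairs of libraries shared 2 to 21 barcodes. Nuclei were gated on marker lists that hold no clock gene, which gave 10670 excitatory, 1356 inhibitory, 2693 astrocyte, 6812 oligodendrocyte, 1131 oligodendrocyte precursor (OPC) and 1993 microglia nuclei, and left 6637 nuclei ungated. Excitatory nuclei were divided into dentate granule, CA1, CA3 and subiculum or cortex, with 3278 and 2136 nuclei for the first pair. UMIs were summed per library and type and are given as CPM (UMIs of a gene scaled to a common total for each library and type), a scale on which 1 gene can be compared between types and libraries but not different genes with each other. Fewer transcripts per nucleus and fewer nuclei of a subtype within a gate cannot be told apart. Gsap stood at 22.5, 23.0 and 22.3 CPM in WT and at 19.8, 21.8 and 22.0 CPM in GKO over all nuclei (log2 fold change -0.07, SE 0.0902, edgeR adjusted p = 1.00). UMIs outside the deleted exons are still counted, so this level does not check the labels.

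Per3 had 0 UMIs in every nucleus of the 8 libraries. The gene, a PER family member, lies at chr4:151003652-151044665 on the minus strand (GRCm38), inside the same-strand gene Camta1 at chr4:150917322-151861876. Of 617 genes that lie inside another gene on the same strand, 615 (99.7%) had 0 UMIs, against 3233 of 28213 genes (11.5%) with no same-strand overlap. A count of 0 for Per3 is therefore a property shared by genes in that position in these files and was not read as a level.

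Astrocytes had the highest levels of most clock genes. Against the mean of the other 5 types, 6 of 9 members rose in astrocytes and 0 fell, at an edgeR adjusted p under 0.05 and a change over 1 on the log2 scale in 8 mice, where 29% of all genes passed in either direction. Npas2 was at 206 ± 70.2 CPM (SD, n = 8) in astrocytes, Cry2 at 106 ± 14.5, Arntl at 139 ± 18.1 and Dbp at 30.5 ± 10.5. The log2 fold changes were 3.51 (SE 0.119) for Npas2, 1.76 (SE 0.0840) for Cry2, 1.65 (SE 0.143) for Dbp, 1.63 (SE 0.117) for Per2, 1.5 (SE 0.0696) for Arntl and 1.40 (SE 0.130) for Per1. Nr1d2 (0.78) and Cry1 (0.42) stayed under the fold limit.

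Npas2 and Clock, which encode alternative partners of ARNTL, were ordered differently across the types. Npas2 stood at 107 ± 17.2 CPM in excitatory neurons, 59.1 ± 22.7 in inhibitory neurons, 14.5 ± 7.72 in OPCs, 5.32 ± 2.89 in microglia and 4.53 ± 1.31 in oligodendrocytes. Its levels in the latter pair overlap, whereas every astrocyte library (131 to 309 CPM) lay above every excitatory library (83.8 to 130 CPM). Clock ran from 67.0 ± 13.0 CPM in astrocytes, the lowest of the 6 types, to 156 ± 14.1 CPM in oligodendrocytes, the highest, with excitatory (122 ± 6.07), inhibitory (114 ± 9.64), OPC (123 ± 15.6) and microglia (116 ± 8.29) nuclei overlapping in between. Against the other types, the log2 fold change of Clock was -0.84 (SE 0.0627) in astrocytes and 0.68 (SE 0.0516) in oligodendrocytes, neither over the fold limit.

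Within neurons, 1 of 9 members passed in excitatory nuclei (31.6% of all genes) and 1 of 9 in inhibitory nuclei (28.8%), in both cases Npas2, at 2.5 (SE 0.115) and 1.34 (SE 0.144). Npas2 was uneven among excitatory subtypes, with 34.7 ± 6.30 CPM in dentate granule, 36.4 ± 9.53 in CA3, 127 ± 15.1 in CA1 and 181 ± 40.1 in subiculum or cortex nuclei. The dentate granule and CA3 libraries overlapped, and every CA1 library (99.6 to 146 CPM) lay above all of them (24.7 to 48.2 CPM). The means of Arntl were split between the same pairs of subtypes, at 67.5 ± 18.9, 64.1 ± 10.3, 103 ± 6.58 and 103 ± 11 CPM. Its libraries overlapped, as J20;GKO dentate granule nuclei, at 108.6 CPM, lay within the CA1 libraries (93.3 to 109.2 CPM). Clock stayed between 112 ± 10.1 CPM in dentate granule and 130 ± 11.5 CPM in CA3 nuclei.

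In the glia other than astrocytes, the members that passed were mostly lower. Npas2 (-3.03, SE 0.265) and Per2 (-1.86, SE 0.171) fell in oligodendrocytes, which made 2 of 9 members against 33.8% of all genes. Microglia had 3 of 9 members lower against 43.4% of genes: Npas2 (-3.15, SE 0.329), Per2 (-2.10, SE 0.246) and Cry2 (-2.01, SE 0.169), of which Npas2 and Per2 rest on 22 and 33 UMIs over the 8 libraries. In OPCs 4 of 9 passed against 21.9%, with Per2 higher (1.78, SE 0.135, at 67.5 ± 17.6 CPM) and Npas2 (-1.17), Per1 (-1.12) and Cry2 (-1.03) lower. In mature oligodendrocytes Per2 stood at 6.71 ± 5.73 CPM, and no library there (1.38 to 19.3 CPM) reached the lowest OPC library (42.5 CPM).

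**Figure D1:**
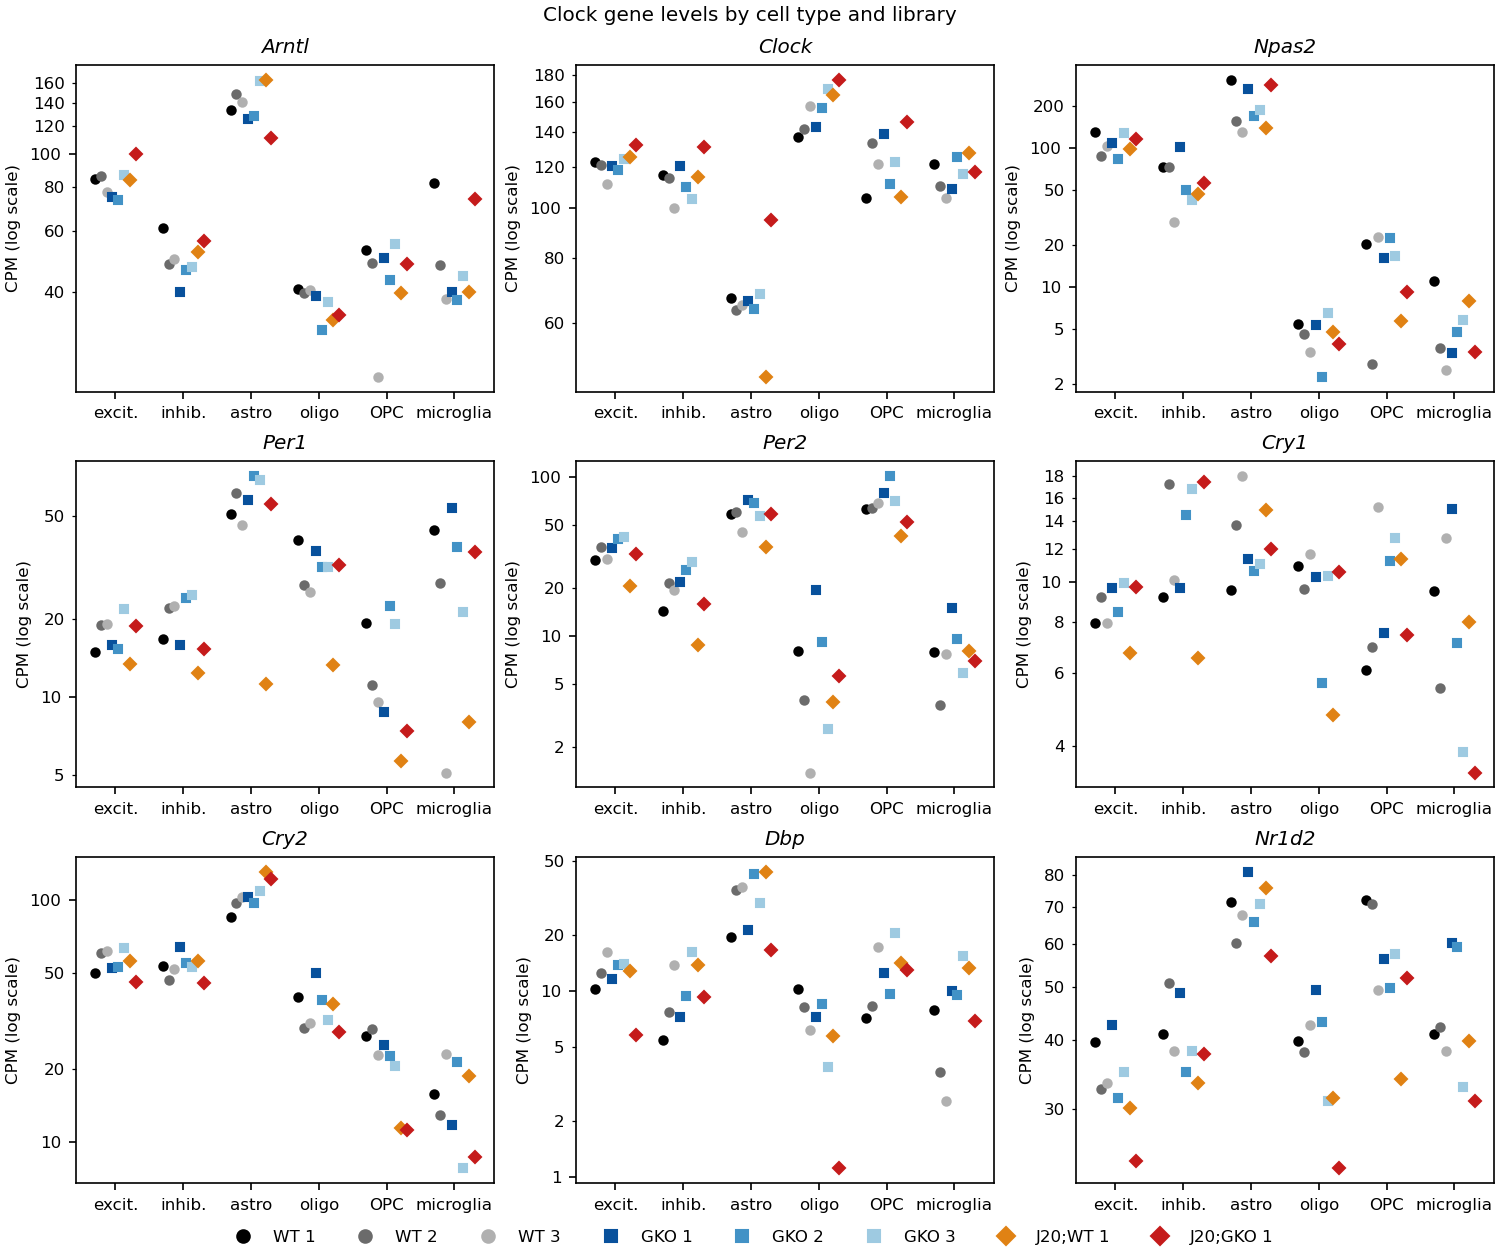
CPM (log scale) of the 9 clock genes with UMIs in 6 gated cell types, with 1 point per library, circles for WT, squares for GKO and diamonds for the J20 libraries. Astrocytes sit highest for Arntl, Npas2, Per1, Cry2 and Dbp and lowest for Clock, and the J20;WT diamond for Per1 lies at 11.2 CPM in astrocytes, below the 46.0 to 71.3 CPM of the 6 WT and GKO libraries.

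Deletion of Gsap was compared in 3 GKO and 3 WT mice to ask whether it moves the clock genes. None of the tested members passed in any type, with 9 tested in excitatory, inhibitory, astrocyte, oligodendrocyte and all nuclei, 7 in OPCs and 4 in microglia, and also none in dentate granule, CA1 or CA3 nuclei. The share of all genes called was 0% in each of these 10 edgeR fits, DESeq2 called 0 genes, and 162 to 254 genes per cell type had an unadjusted p under 0.05. That is fewer than a limit of 0.05 gives by chance among the 8004 to 17199 genes tested per type. These fits hold no term for the date described below, so differences between dates stay in their spread. With the replicate number as a block, 7 genes over the 6 cell types and 0 members passed. Per2 came closest. It stood at 28, 32.4 and 28.6 CPM in WT and at 35.2, 39.3 and 38.4 CPM in GKO over all nuclei, so that the groups did not overlap, yet the log2 fold change of 0.36 (SE 0.0980) had an edgeR adjusted p of 1.00. Its log2 fold change was 0.32 (SE 0.112) in excitatory and 0.53 (SE 0.216) in inhibitory neurons, both at an adjusted p of 1.00. For Arntl, Clock, Npas2 and Nr1d2 in excitatory neurons the values were -0.06 (SE 0.108), 0.05 (SE 0.0994), 0.02 (SE 0.189) and 0.06 (SE 0.155).

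The names of the deposited data carry 3 dates, whose meaning is not stated: WT 1 and GKO 1 share the earliest, WT 2, WT 3, GKO 2, GKO 3 and J20;GKO share the next, and J20;WT has the last. The 2 WT and GKO mice of the earlier date were compared with the 4 of the later date, with genotype as a term. In astrocytes 2 of 9 members passed (7.96% of all genes did). Npas2 was at 309 CPM in WT 1 and 267 CPM in GKO 1 against 157, 131, 169 and 188 CPM in WT 2, WT 3, GKO 2 and GKO 3 (log2 fold change 0.85, SE 0.127, edgeR adjusted p = 0.000205). It was called again with each of the 6 mice left out in turn. Dbp went the other way, at 19.5 and 21.3 CPM against 34.9, 36.1, 42.5 and 29.7 CPM (-0.79, SE 0.215, edgeR adjusted p = 0.0266), with no overlap between dates, but passed in only 1 of the 6 fits that left a mouse out and not with DESeq2 (adjusted p = 0.166).

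Nr1d2, an evening gene like Dbp, rose on the earlier date in excitatory neurons, the only member of 9 that passed there (11% of all genes). It stood at 39.7 and 42.7 CPM against 32.6, 33.4, 31.4 and 34.9 CPM (0.38, SE 0.0848, edgeR adjusted p = 0.0221), and passed in 2 of the 6 fits with a mouse left out. The difference was larger in CA1 nuclei (7.8% of genes called), at 42.6 and 45.2 CPM against 26.2, 29.6, 27.5 and 29.3 CPM (0.70, SE 0.123, edgeR adjusted p = 0.00601). In all nuclei (14.5% of genes) Nr1d2 rose (0.33, SE 0.0718, edgeR adjusted p = 0.0207) while Dbp fell (-0.42, SE 0.10, edgeR adjusted p = 0.0285). With a mouse left out, Nr1d2 passed in 3 of 6 of these fits and Dbp in 2 of 6, with adjusted p up to 0.254 and 0.187. Both encode outputs that peak on the same side of the day, and their log2 fold changes kept opposite signs in all 6 fits.

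In oligodendrocytes 1 of 9 members passed (13.2% of genes). Per2 stood at 8.03 and 19.3 CPM on the earlier date against 3.92, 1.38, 9.07 and 2.59 CPM, from 2 to 51 UMIs a library (1.56, SE 0.369, edgeR adjusted p = 0.00621). The dates overlap, since GKO 2 lay above WT 1, and without GKO 1 it was not called. None of the members passed in inhibitory neurons (9 tested, 12.8% of genes), OPCs (8 tested, 5.07%) or microglia (5 tested, 6.15%). In dentate granule (7.06% of genes) and CA3 (6.18%) nuclei 0 of 9 members passed.

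**Figure D2:**
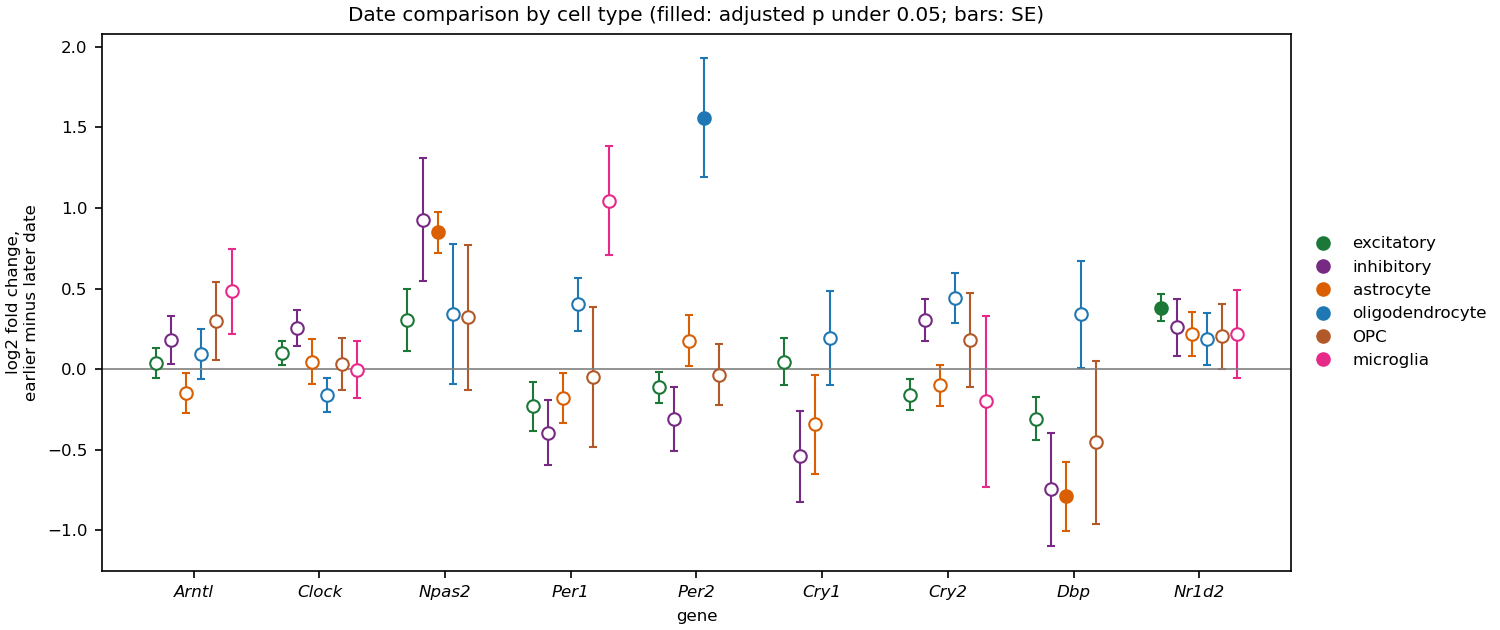
Log2 fold change between the earlier and the later date for 9 clock genes in 6 cell types, with bars of 1 SE and filled points at an edgeR adjusted p under 0.05. Of the filled points, Npas2 in astrocytes (0.85), Per2 in oligodendrocytes (1.56) and Nr1d2 in excitatory neurons (0.38) lie above 0 and Dbp in astrocytes (-0.79) lies below.

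The size of the date difference was tested against cell type in 1 model over the 6 mice. Of 9 members, 3 passed, against 9% of all genes: Per2 (edgeR adjusted p = 0.00212), Per1 (0.0172) and Cry2 (0.0413). Per1 had log2 fold changes of -0.23 in excitatory, -0.39 in inhibitory and -0.18 in astrocyte nuclei but of 0.40 in oligodendrocytes and 1.04 in microglia. In microglia Per1 stood at 44.2 and 53.4 CPM on the earlier date against 27.5, 5.10, 37.9 and 21.3 CPM. The value of 5.10 CPM, in WT 3, rests on 2 UMIs. In the fit of microglia alone 0 of 5 members passed by date, with a lowest edgeR adjusted p of 0.0639. For Nr1d2, whose log2 fold change lay above 0 in all 6 types, the test gave an edgeR adjusted p of 0.949. Without GKO 1, 0 members passed this test, without WT 1, WT 2, WT 3 or GKO 3 it was 1, and without GKO 2 it was 3.

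Glucocorticoid-responsive genes also moved with the date. In a list of 10 such genes, 9 of 10 rose in astrocytes on the earlier date with a median log2 fold change of 1.93 (7.96% of all genes were called), 5 of 10 rose in oligodendrocytes (median 1.69, 13.2% of genes) and 6 of 9 in microglia (median 1.64, 6.15%), and 0 fell. Their summed level in astrocytes was 1671 and 1927 CPM on the earlier date and 286 to 805 CPM in the other WT and GKO libraries. Of 11 immediate early genes, 4 fell on the earlier date and 0 rose in all nuclei (14.5% of genes called). By type, 3 of 11 fell in excitatory neurons (11%) and 1 of 5 in astrocytes (7.96%), and 0 of 8 passed in inhibitory neurons (12.8%), 0 of 6 in oligodendrocytes (13.2%) and 0 of 2 in OPCs (5.07%) and in microglia (6.15%). The part of either list in the clock gene values was not tested.

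Of the other clock genes, 5 of 24 passed by date in excitatory neurons (3 higher and 2 lower, 11% of all genes), 4 of 23 in dentate granule (7.06%), 3 of 22 in CA1 (7.8%) and 1 of 21 in CA3 nuclei (6.18%). Among those that passed in excitatory neurons, the Arntl activator Rora (0.43) and the CLOCK inhibitor Cipc (0.37) rose, and the deubiquitinase Usp2 (-0.31) and the PER-associated protein gene Nono (-0.31) fell. In dentate granule nuclei Rora (0.32), the repressor gene Bhlhe40 (0.67) and the Dbp relative Hlf (0.35) rose and Usp2 (-0.51) fell, and Rora (0.37) and Cipc (0.47) were among those that rose in CA1. In astrocytes 2 of 22 passed (7.96%), Rora (0.57) upward and Rorb (-0.45) downward. Oligodendrocytes had 2 of 21 (13.2%), both higher, Tef (0.39) and Usp2 (0.77), and OPCs had 1 of 20 (5.07%), Rorb (0.64). None passed in inhibitory neurons (22 tested) or microglia (15 tested).

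To place the libraries on 1 axis per cell type, a phase index was computed as the mean log2 CPM of the later-peaking Per1, Per2, Dbp and Nr1d2 minus that of the dawn-peaking Arntl, Clock and Npas2. A higher index means more of the later-peaking transcripts, and the index has no test. In excitatory neurons it was -2.42, -2.08 and -2.02 in WT 1 to 3, -2.11, -1.98 and -2.11 in GKO 1 to 3, -2.49 in J20;WT and -2.74 in J20;GKO. In astrocytes the same libraries had -1.63, -1.11 and -1.15, then -1.33, -0.87 and -1.25, then -1.57 and -1.76. The order of the libraries was alike in these types: of the 28 pairs of libraries, 26 were ordered the same way, with GKO 2 highest and J20;GKO lowest in both.

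That order did not extend to every type. Excitatory and inhibitory neurons ordered 21 of 28 pairs alike, as did inhibitory neurons and astrocytes and also astrocytes and OPCs, whereas excitatory neurons and microglia shared 14, inhibitory neurons and oligodendrocytes 12, and OPCs and microglia 11. Only 4 of 28 pairs were ordered alike in all 6 types. Several genes of the index had few UMIs a library in the glia other than astrocytes. In microglia Npas2 had 1 to 7, Per2 2 to 9 and Dbp 1 to 8. In oligodendrocytes Npas2 had 4 to 17 and Per2 2 to 51, and in OPCs Npas2 had 2 to 20. The part of counting error in the order was not tested. By date, the earlier mice had the lower index without overlap in inhibitory (difference -0.76), astrocyte (-0.38) and OPC (-0.40) nuclei. In excitatory nuclei (-0.22) the dates all but met, with GKO 1 at -2.110 and GKO 3 at -2.107, and WT 1 alone lay well below. In oligodendrocytes (0.57) and microglia (0.35) the earlier mean was the higher, with overlap. Cell types of 1 library share a mouse and a dissection, and their indices are not independent.

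**Figure D3:**
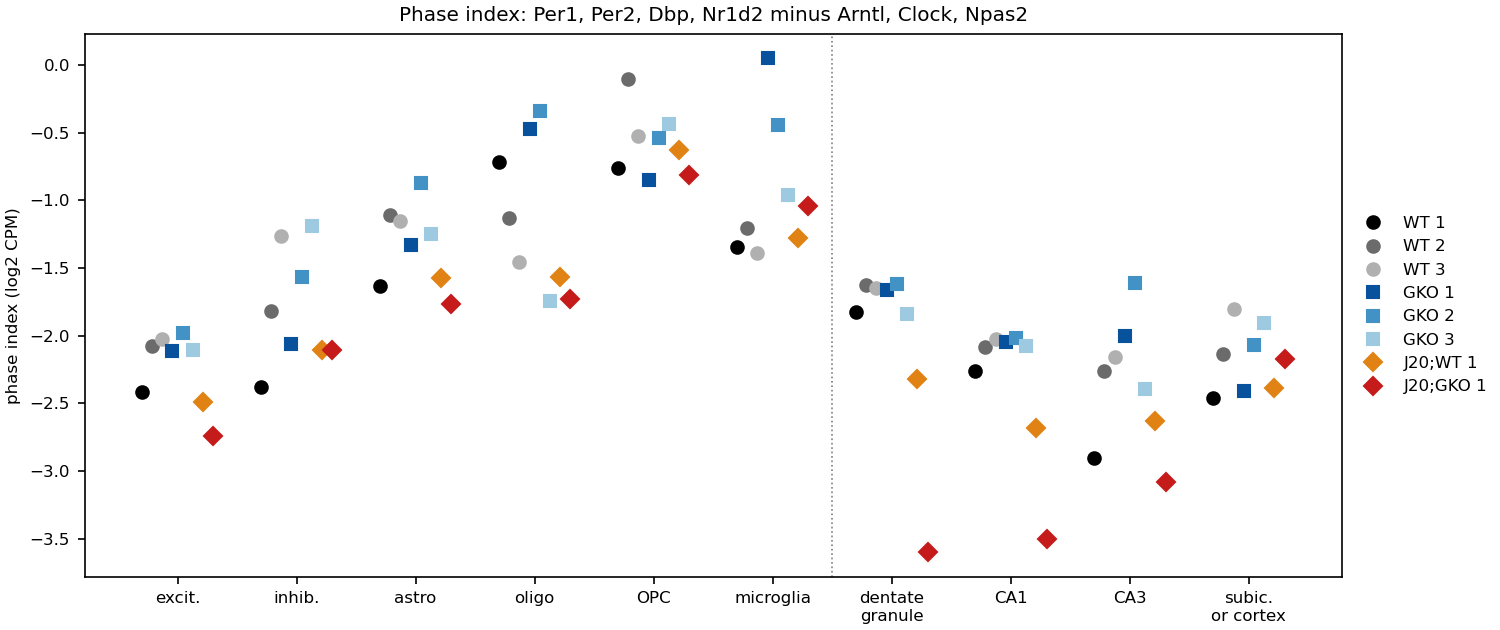
Phase index (mean log2 CPM of Per1, Per2, Dbp and Nr1d2 minus that of Arntl, Clock and Npas2) per library in 6 cell types and, right of the dotted line, 4 excitatory subtypes. The J20;GKO diamond lies at -3.60 in dentate granule and -3.50 in CA1 nuclei, away from the 6 WT and GKO points (-1.84 to -1.62 and -2.26 to -2.02), and within the others at -2.17 in subiculum or cortex.

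The largest gap between 1 library and the rest was that of J20;GKO in dentate granule and CA1 nuclei. With 1 mouse of each J20 genotype there is no test, and genotype, mouse and, between the J20 libraries, date cannot be told apart. Against the 6 WT and GKO libraries, age cannot be told apart from the transgene either, as both J20 mice were younger. J20;WT also has a date that none of these 6 share. In dentate granule nuclei the index was -3.60 in J20;GKO and -2.32 in J20;WT against -1.84 to -1.62 in the 6 WT and GKO libraries, and in CA1 it was -3.50 and -2.68 against -2.26 to -2.02. In CA3 it was -3.08 in J20;GKO, with WT 1 at -2.90, and in subiculum or cortex -2.17, inside the range of -2.46 to -1.80.

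Dbp, an E-box output that encodes a PAR bZIP factor, was at 14.8, 16.6 and 17.7 CPM in WT and 16.8, 19.9 and 16.9 CPM in GKO CA1 nuclei, at 11.5 CPM in J20;WT and at 1.37 CPM in J20;GKO, from 4 UMIs (exact Poisson 95% interval 0.373 to 3.51 CPM). The J20;GKO value lay 3.48 below the mean of the 6 on the log2 scale. In dentate granule nuclei Dbp was at 8.47, 11.2 and 13.7 CPM in WT, 7.58, 10.9 and 8.83 CPM in GKO, 10.5 CPM in J20;WT and 2.67 CPM in J20;GKO, again from 4 UMIs (0.726 to 6.82 CPM). The upper bounds of both intervals lie below the lowest WT or GKO library. Dbp overlaps Sphk2 on the other strand, and whether the counting used strand is not given in the sources used here.

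Nr1d2, which represses Arntl, was flat across the other 7 libraries in dentate granule nuclei, at 35.4, 33.2 and 32.2 CPM in WT, 37.6, 31.8 and 36.7 CPM in GKO and 34.7 CPM in J20;WT. It stood at 8.66 CPM in J20;GKO (13 UMIs, 4.61 to 14.8 CPM), a log2 difference of -1.94 from the mean of the 6. Arntl ran in the opposite direction there, at 48.2, 65.0 and 60 CPM in WT, 55.3, 59.8 and 63.7 CPM in GKO, 79.4 CPM in J20;WT and 108.6 CPM in J20;GKO. In CA1 nuclei Nr1d2 was at 13.4 CPM in J20;GKO against 26.2 to 45.2 CPM in the 6, while Arntl at 109 CPM was close to their 93.3 to 109 CPM.

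Per2 separated both J20 libraries in dentate granule nuclei, at 25.6, 31.4 and 22.5 CPM in WT, 30.1, 42.0 and 32.9 CPM in GKO, 12.8 CPM in J20;WT and 6.00 CPM in J20;GKO. In CA1 it was lower in J20;WT, at 24.6 CPM, than in J20;GKO, at 39.4 CPM, with the 6 at 43.7 to 52.9 CPM. In CA3 nuclei J20;WT, at 21.1 CPM, was again below J20;GKO, at 41.7 CPM. There J20;GKO lay above the 6 (21.3 to 35.2 CPM), whereas in dentate granule and CA1 nuclei it lay below them. Per1 was not part of the pattern, at 9.33 CPM in J20;GKO and 10.5 CPM in J20;WT dentate granule nuclei against 8.93 to 14.1 CPM in all 8 libraries. Cry1 was at 20.0 CPM in J20;GKO against 8.84 to 14.9 CPM in the 6. Npas2 in J20;GKO, at 32.6 CPM, lay within the 6.

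**Figure D4:**
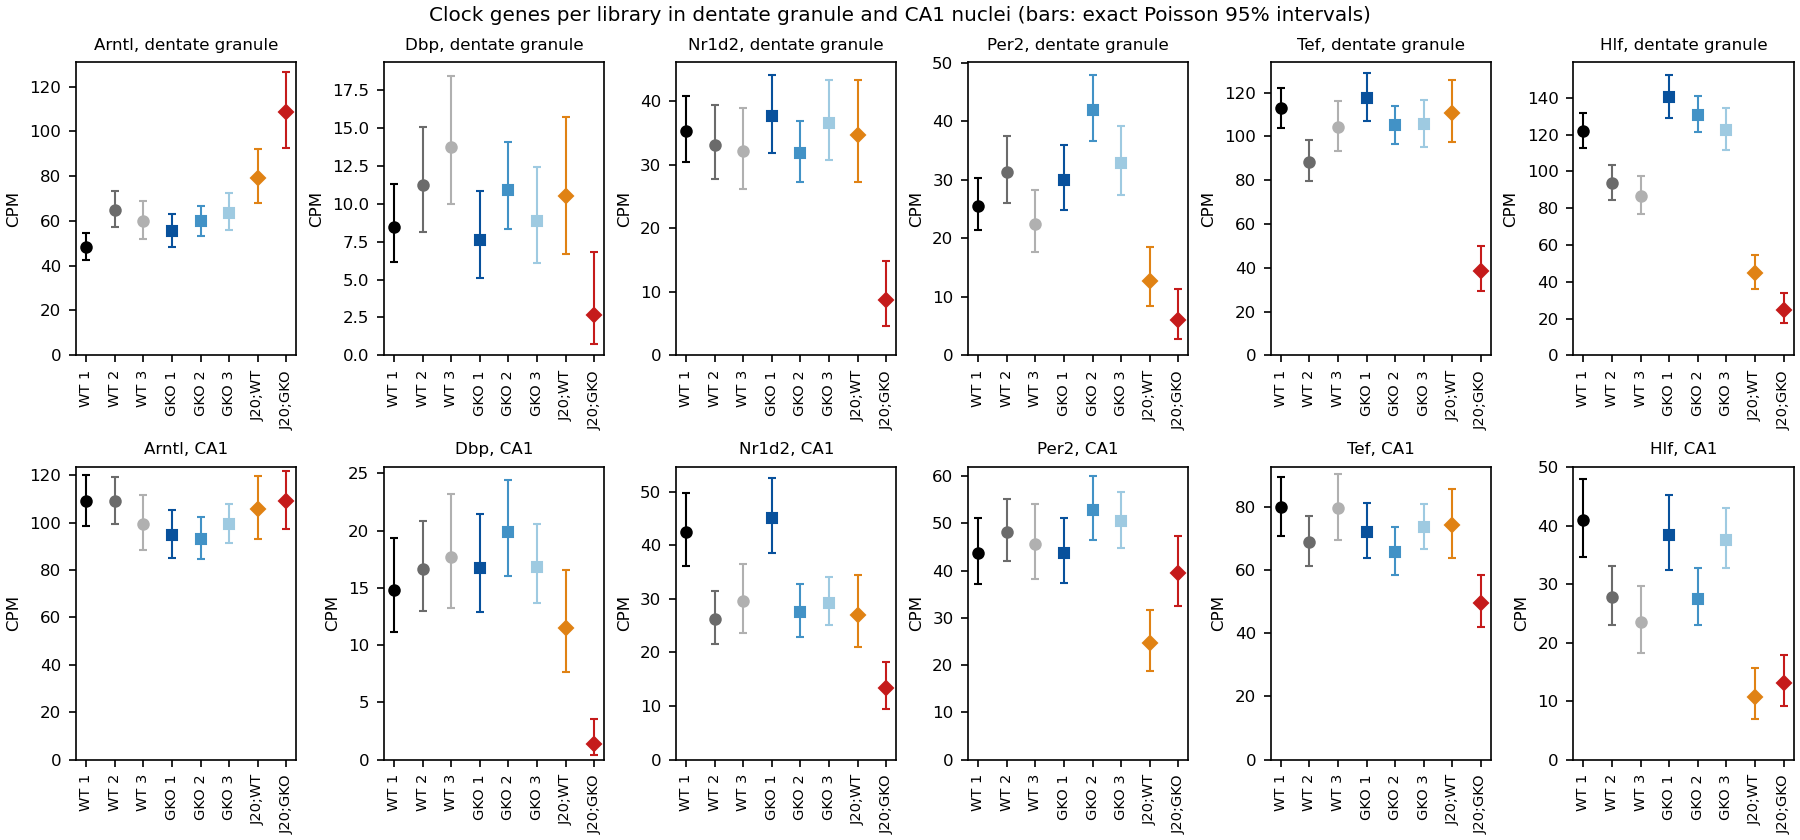
CPM per library of Arntl, Dbp, Nr1d2, Per2, Tef and Hlf in dentate granule (top) and CA1 (bottom) nuclei, with exact Poisson 95% intervals that cover counting error only. In the top row J20;GKO is the highest library for Arntl (108.6 CPM) and the lowest for the other 5 genes, with Nr1d2 at 8.66 CPM against 31.8 CPM or more elsewhere.

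Lower by more than 2-fold than the mean of the 6 and below all of them were 3 of 9 members in J20;GKO dentate granule nuclei (Dbp, Nr1d2 and Per2), where 5.81% of all genes were so, and 2 of 9 in J20;GKO CA1 nuclei (Dbp and Nr1d2), where 1.64% of genes were. For J20;WT the counts were 1 of 9 in dentate granule nuclei (Per2, 2.29% of genes) and 0 of 9 in CA1 nuclei (1.79%). Among 22 other clock genes, 6 were so in J20;GKO dentate granule nuclei and 4 in CA1 nuclei. The dentate granule set of J20;GKO held 159 nuclei against 333 to 681 in the other libraries. Its 8 markers summed to 3989 CPM against 3940 to 5316 CPM, and 1 of them, Tdo2, had 0 UMIs there and in no other library. For CA1, with 179 nuclei, the 6 markers summed to 1347 CPM within 1055 to 1519 CPM and none was at 0. The CA3 markers were highest in J20;GKO in both sets. They summed to 896 CPM in dentate granule (635 to 737 CPM elsewhere) and 454 CPM in CA1 nuclei (298 to 363 CPM). The CA1 markers in dentate granule nuclei were lowest in J20;GKO, at 36.0 CPM against 49.3 to 78.1 CPM. Those of subiculum or cortex lay within the other libraries in both sets. The part of this in the clock gene values was not tested.

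Other clock outputs were also low in J20;GKO dentate granule nuclei. Tef, whose window is printed above with its E-box, was at 113, 88.5 and 104 CPM in WT, 118, 105 and 105 CPM in GKO, 111 CPM in J20;WT and 38.6 CPM in J20;GKO. Hlf, the third factor of that family, was at 122, 93.6 and 86.8 CPM, then 140, 131 and 123 CPM, and lay below these in both J20;WT (44.7 CPM) and J20;GKO (24.7 CPM). Ciart, with 3 E-boxes in its window, had 0 UMIs in J20;GKO, against 2.30 to 5.89 CPM in the 6. Set at 3 UMIs, that count stands for 2.0 CPM in that library. The exact Poisson interval for 0 UMIs there reaches 2.46 CPM, above the lowest of the 6, so counting error alone could close the gap.

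Wee1, a cell cycle kinase gene under clock control, was at 10.7 CPM in J20;GKO against 23.7 to 41.1 CPM in the 6. Nr1d1 and Rorb stood at 1.33 CPM each, from 2 UMIs, against at least 3.54 and 2.78 CPM. The exact Poisson interval for 2 UMIs there reaches above both of these lowest values, so counting error alone could close either gap. The repressor gene Bhlhe41, also with an E-box, went the other way, at 48.0 CPM against 13.9 to 20.7 CPM in the 6 and 21.0 CPM in J20;WT. In CA1 nuclei Bhlhe41 was instead the lowest in J20;GKO, at 11.98 CPM against 13.2 to 25.1 CPM in the 6, like Tef (49.6 against 65.7 to 79.9 CPM) and Ciart (2.74 against 4.67 to 10.5 CPM). The exact Poisson intervals of Bhlhe41 (8.35 to 16.7 CPM) and Ciart (1.18 to 5.40 CPM) reach above the lowest of the 6. That of Tef (41.9 to 58.4 CPM) does not. Hlf there was at 13.0 CPM in J20;GKO and 10.7 CPM in J20;WT against 23.5 to 40.9 CPM.

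Outside dentate granule and CA1 nuclei, Dbp in J20;GKO was at 1.11 CPM in oligodendrocytes (2 UMIs, 0.135 to 4.02 CPM) against 3.88 to 10.3 CPM in the 6, and at 16.5 CPM in astrocytes against 19.5 to 42.5 CPM. In inhibitory neurons it was at 9.28 CPM, in the middle of the 5.44 to 16.1 CPM of the 6. Nr1d2 in J20;GKO was below all 6 in excitatory, astrocyte, oligodendrocyte and microglia nuclei, by 0.27 to 0.78 on the log2 scale from their mean, where 14.7% to 23.9% of all genes lay below, and within them in inhibitory neurons and OPCs. The dawn gene Clock was above all 6 in excitatory, inhibitory, astrocyte, oligodendrocyte and OPC nuclei of J20;GKO, by 0.15 to 0.53, where 10.7% to 21.9% of genes lay above. Single genes outside the range of the 6 were thus common in these types. Each of these types came from the same mouse.

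J20;WT differed in other members. Per1 was at 51, 61.2 and 46.0 CPM in WT, 57.6, 71.3 and 68.9 CPM in GKO, 55.6 CPM in J20;GKO and 11.2 CPM in J20;WT astrocytes, from 9 UMIs (5.12 to 21.3 CPM). In oligodendrocytes Per1 was at 13.3 CPM in J20;WT against 25.5 to 40.2 CPM, and in microglia at 7.98 CPM from 3 UMIs against 5.10 to 53.4 CPM, within the range. Per2 in J20;WT was below all 6 in excitatory, inhibitory, astrocyte and OPC nuclei, by 0.71 to 1.26 on the log2 scale, where 15.3% to 21.3% of genes lay below. The glucocorticoid-responsive genes summed to 223 CPM in J20;WT astrocytes, the lowest of the 8 libraries, and to 1042 CPM in J20;GKO, and their part in Per1 was not tested.

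**Figure D5:**
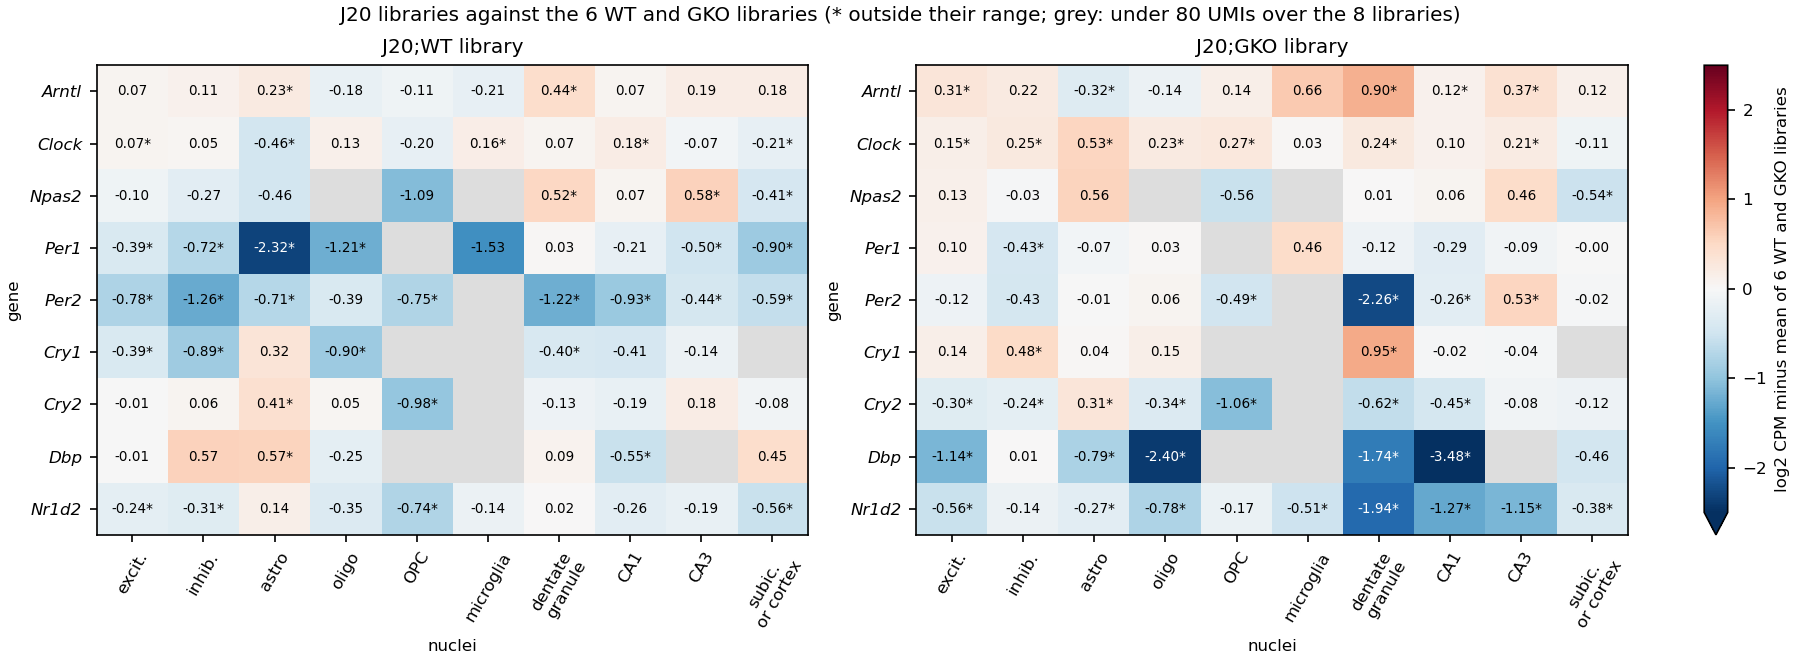
Log2 CPM of 9 clock genes (rows) in each J20 library minus the mean of the 6 WT and GKO libraries, by cell type and excitatory subtype (columns), with an asterisk where the value lies outside the range of the 6 and grey where too few UMIs were counted. The darkest cells are Dbp in CA1 (-3.48) and oligodendrocytes (-2.40) and Per2 in dentate granule nuclei (-2.26) of J20;GKO, and Per1 in astrocytes (-2.32) of J20;WT.

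Set against each other, the J20 libraries differed in a member by more than any of the 6 pairs of mice of 1 genotype did in 7 of 9 members in dentate granule nuclei (36.2% of genes), 3 of 9 in CA1 (25.7%), 2 of 8 in CA3 (20.8%) and 1 of 8 in subiculum or cortex (19.1%). In the main types the counts were 4 of 9 in excitatory (25%), 3 of 9 in inhibitory (17.1%), 6 of 9 in astrocyte (31.5%), 2 of 6 in oligodendrocyte (25%), 2 of 4 in OPC (23.1%) and 0 of 4 in microglia nuclei (21.4%). In dentate granule nuclei the log2 ratio of J20;GKO over J20;WT was -1.96 for Nr1d2, where no pair of 1 genotype differed by more than 0.24, -1.84 for Dbp (0.70), -1.04 for Per2 (0.48), 1.35 for Cry1 (0.66) and 0.45 for Arntl (0.43). In CA1 nuclei it was -2.92 for Dbp (0.25), -1.01 for Nr1d2 (0.71) and 0.67 for Per2 (0.27).

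The patterns most like the phase index over the 8 libraries were looked for among 4515 genes outside the lists, as the mean Pearson correlation over excitatory, astrocyte and oligodendrocyte nuclei. The highest were E130102H24Rik (0.77), Arhgef1 (0.76), Sh3gl1 (0.74), Zfhx4 (0.72) and Ssbp4 (0.71), and the lowest were App (-0.80), Scd2 (-0.74) and Mettl9 (-0.70). App is the mouse gene whose human counterpart is the J20 transgene. The J20 libraries had the lowest index in excitatory neurons, but WT 1 lay below J20;WT in astrocytes and GKO 3 below both in oligodendrocytes. Whether the transgene has a part in the App value was not tested. These are descriptions over libraries that share mice and depth.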

How the data were processed

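Hippocampal nuclei of 8 mice were profiled by 10x sn-RNAseq. According to the submitters' processing notes, Cell Ranger, mm10, Seurat 3.0 and R 3.6.2 were used. The authors deposited whole-number UMI counts per gene and nucleus, with no normalization, in 1 matrix per mouse. The counting of intronic or antisense reads is not given in the sources used here.

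Nuclei with 200 to 7500 genes and at most 5% mitochondrial UMIs were kept, following the filter stated for the study. A nucleus was gated to a type when its mean marker score, with each marker scaled to its 99 percentile and limited to 1, was at least 0.1, at least 3 markers were detected, and the second-best score was at most 0.5 of the best. This left 20.7% of nuclei ungated, and 3406 nuclei lay near the limit on the ratio. No doublet caller was run, and nuclei with markers of more than 1 type were left ungated by the ratio. The gate is not the authors' annotation. The members, marker and gene lists and comparisons were chosen with earlier results of these data known.

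UMIs were summed per mouse and type. Genes kept by filterByExpr were tested in edgeR 4.0.16 (R 4.3.3) with TMM factors, quasi-likelihood F tests and Benjamini-Hochberg adjustment over all genes of a type, and called at an adjusted p under 0.05. The study tested nuclei, whereas mice were the replicates here. p-values measure the spread between mice. DESeq2 1.42.0 was an alternative. The fits were tested on simulated counts. The phase index, with a prior of 0.5 UMI, leaves out Per3, which had no UMI, and this was decided after the counts were seen. The excitatory subtype fits, too, were chosen after seeing the data. Intervals are exact Poisson intervals at 95% and a count of 0 was set at 3 UMIs. Both cover counting error only. The named genes are the 10 members, then those of the other clock list where called or needed, and the 5 highest and 3 lowest genes by likeness to the index, from genes with at least 20 UMIs in every library. Tef, Hlf, Ciart, Bhlhe40, Bhlhe41, Wee1, Nr1d1 and Rorb were named after their values were seen. The values of 1 gene of the other clock list are not reported here.

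The main fits did not pair the mice, and a block on the replicate number was run as an alternative. The deviations of same-numbered WT and GKO mice, which also share a date, correlated at 0.57, 0.185 and 0.219 over all nuclei. In inhibitory neurons and OPCs the second pair correlated at 0.0341 and 0.0393. Same-date pairs of different number correlated at 0.216 and 0.303, so these values do not tell pairing by number from a shared date.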

Additional observations from a re-analysis of the deposited data

Results flagged for a closer look

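The date difference of 3 clock genes varied with cell type in 1 edgeR model over the 6 WT and GKO mice. Per2 (adjusted p = 0.00212) had log2 fold changes of -0.11 in excitatory, -0.31 in inhibitory, 0.18 in astrocyte, 1.56 in oligodendrocyte and -0.03 in OPC nuclei. Per1 (adjusted p = 0.0172) ranged from -0.39 in inhibitory neurons to 1.04 in microglia, and Cry2 (adjusted p = 0.0413), which encodes a cryptochrome repressor, from -0.20 in microglia to 0.44 in oligodendrocytes. The comparison rests on 2 mice of the earlier date, and without GKO 1 none of the 3 was called.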

How the results depend on the processing

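The comparison of GKO with WT called 0 members under each alternative run (library totals only, DESeq2, no filter on low counts, a stricter marker gate, nuclei with at least 500 genes, date as a term, each mouse left out). With the replicate block 0 members passed as well, although 7 genes that are no members did, against 0 without it. The block changed no call of a member. The cell type comparison called 17 members over the types, and 16 to 18 under its alternatives. In its main fit 9 members were tested in each type, and 21.9% to 43.4% of all genes passed per type. Over the 6 types the date comparison called 4 members, 2 with DESeq2 and 1 to 5 with a mouse left out, with the fewest without GKO 1 and 2 without WT 1 or WT 3. In the main date fits 5.07% to 13.2% of all genes passed per type, with 5 to 9 members tested. Whether members passed more often than genes at large was not tested in the cell type or the date comparison. Where WT 1 or GKO 1 was left out, the lone earlier mouse was assumed to vary like the others. The test of date by cell type called 3 members, and 0 to 3 with a mouse left out. The number of library pairs ordered alike by the phase index in all 6 types was 4, and 9 with the log2 ratio of summed UMIs of each arm. With a stricter marker gate, chosen for the subtypes after seeing the data, the J20;GKO log2 difference from the mean of the 6 in dentate granule nuclei went from 0.90 to 0.56 for Arntl, from -2.26 to -1.62 for Per2, from -1.74 to -2.64 for Dbp and from -1.94 to -2.30 for Nr1d2, and in CA1 nuclei from -3.48 to -3.18 for Dbp, from 0.12 to 0.37 for Arntl and from -0.26 to -0.06 for Per2. With a prior of 2 UMIs it was -1.38 for Dbp and -1.80 for Nr1d2 in dentate granule and -3.09 for Dbp in CA1 nuclei. Depth limits the low genes most: Dbp and Ciart rest on 0 to 4 UMIs in the J20;GKO dentate granule nuclei, and Npas2, Per2, Cry1, Cry2 and Dbp on 22 to 58 UMIs over all 8 libraries in microglia.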

Other observations

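The 242 vascular and 277 Cajal-Retzius nuclei were too few for a test. In vascular nuclei Nr1d2 stood at 113 ± 41.5 CPM (SD, n = 8) and Npas2 at 73.8 ± 50.7 CPM, from 80 and 54 UMIs, and Dbp at 28.8 ± 20.5 CPM from 22 UMIs. Cajal-Retzius nuclei, the early-born reelin neurons that persist in the hippocampus, had Clock at 123 ± 33.4 CPM, Arntl at 78 ± 24.0 CPM and Nr1d2 at 60.7 ± 24.8 CPM, from 153, 96 and 76 UMIs.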
